A study of Mus musculus with 4 samples.

Results

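The response to periostin was compared between 2 sorted subsets of mouse periosteal macrophages, CX3CR1+ACE+ and CX3CR1+CD74+ cells, gene by gene. The difference in response, D, was the log2 change of a gene with periostin over vehicle in ACE+ cells minus the same log2 change in CD74+ cells, with 1 CPM (reads per 1000000 reads of the mean library) added to every level. A positive D therefore means a response that was higher in ACE+ cells. The members were the 14398 genes listed for both subsets, of 17532 listed for either. Of these, 13837 reached 1 CPM in the highest library and were compared, and 561 stayed below that level.

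RNA sequencing was run on 4 groups of 1 library each, ACE+ cells with periostin, ACE+ cells with vehicle, CD74+ cells with periostin and CD74+ cells with vehicle. All cells came from the periosteum, the membrane over bone, of wild-type male C57BL/6 mice aged 4 weeks (postnatal day 28), and were sorted for CD45, CX3CR1 and either ACE or CD74. They were cultured with 10 ng/ml of the macrophage growth factor M-CSF and 10% serum, and received recombinant mouse periostin at 500 ng/ml or PBS for 24 h. The labels do not say how many mice each library pools. With 1 library per group there was no replicate spread and no test of D or of the response of either subset. Thus "rose" and "fell" stand for a 2-fold change or more with 1 CPM added, and intervals cover counting error only.

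Periostin is a secreted matricellular protein of periosteum, tendon and healing tissue. It binds integrins on the cell surface, which link the matrix to adhesion and survival signalling, and it also binds collagens and helps to cross-link them. ACE, angiotensin-converting enzyme, is a surface peptidase, and CD74 is the invariant chain that escorts MHC class II molecules. The comparison asks in which pathways the subsets answered the same matrix signal differently, and whether periostin left them more alike or less alike.

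Recovered reads ranged between 11846312 in CD74+ cells with periostin and 19798150 in ACE+ cells with periostin. The CD74+ periostin library, the shallowest, enters every value of D and could not be left out. It alone had 0 reads for 148 genes that reached 5 CPM elsewhere, where 3 of its reads are 0.269 CPM. Such genes numbered 4 for ACE+ cells with periostin, 5 for ACE+ cells with vehicle and 4 for CD74+ cells with vehicle. The part of this imbalance in the CD74+ changes and in the gaps between subsets was not tested. A panel of 10 macrophage markers summed to 7113 CPM with periostin and 6682 with vehicle in ACE+ cells, and to 6180 and 6083 CPM in CD74+ cells. Markers of other cells were present in all libraries, and B-cell markers summed to between 29.5 and 732 CPM. Markers of neutrophils summed to 25637 and 20992 CPM in ACE+ cells with periostin and vehicle and to 19187 and 11868 CPM in CD74+ cells, above the macrophage panel in every library. Of these 8 markers, 8 were higher with periostin in ACE+ cells and 6 in CD74+ cells, and their part in the values of D was not tested. Of the sorted surface proteins, Cd74 mRNA was higher in CD74+ cells under both treatments, at 552 and 531 CPM in ACE+ cells with periostin and vehicle and 1222 and 850 CPM in CD74+ cells. Ace mRNA had 2.80 and 2.76 CPM in ACE+ cells with periostin and vehicle, and 9.51 and 0.897 CPM in CD74+ cells. With periostin, Ace was thus higher in the CD74+ library than in the ACE+ library, against the sort label, and its D was -2.46.

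The response was larger in the CD74+ pair of libraries than in the ACE+ pair. The CD74+ pair includes the shallowest library. Its changes also followed gene length more strongly, with Spearman's rho of -0.315 against -0.102 in ACE+ cells. The part of that library and of the length trend in the larger response was not tested. The median absolute log2 change was 0.18 in ACE+ cells (SD of the log2 changes over genes 0.35) and 0.36 in CD74+ cells (SD 0.64). In ACE+ cells 133 genes (0.961%) rose and 126 (0.911%) fell, while in CD74+ cells 836 (6.04%) rose and 726 (5.25%) fell. D was at least 1, a 2-fold higher response in ACE+ cells, for 896 genes (6.48%), and at most -1 for 981 genes (7.09%). At a 4-fold difference these counts were 87 (0.629%) and 124 (0.896%). With genes listed for either subset included, 15731 genes, the 2-fold counts were 1595 and 1258, so the larger side changed. The log2 changes of the subsets were weakly related across the 13837 genes, with Spearman's rho of 0.086 and Pearson's r of 0.061. At 20 CPM or more the rho was 0.131 over 8238 genes, and 53.7% of all compared genes had the same sign in both. These are descriptions across genes of 4 libraries, and genes are not independent replicates.

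**Figure D1:**
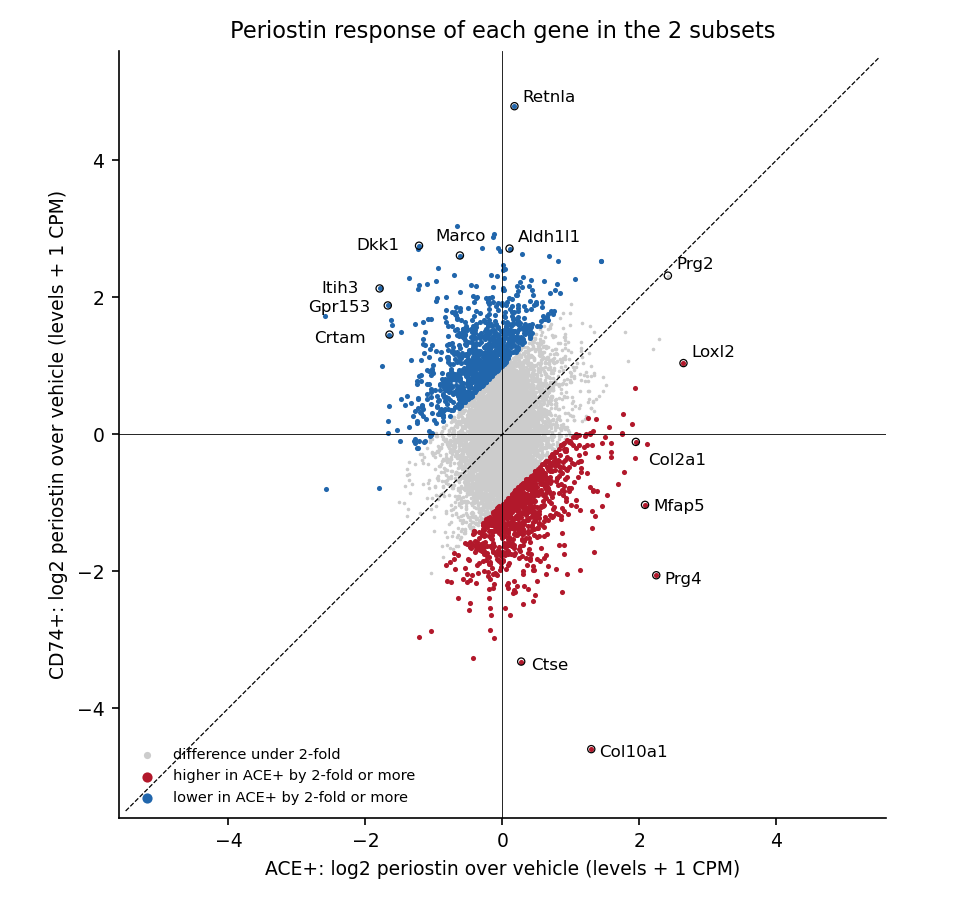
Each point is 1 of the 13837 compared genes, with its log2 change with periostin over vehicle in ACE+ cells on the x axis and in CD74+ cells on the y axis. Red marks D of at least 1 (896 genes), blue marks D of at most -1 (981 genes), and the dashed line marks equal responses. The cloud is taller than it is wide, with a SD of 0.64 in CD74+ cells against 0.35 in ACE+ cells.

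Changes in one subset with little change in the other were far more common in CD74+ cells. A change of at least 2-fold in one subset beside an absolute log2 change under 0.5 in the other was seen for 109 genes (0.788%) in ACE+ cells, 58 up (0.419%) and 51 down (0.369%). In CD74+ cells it was seen for 1157 genes (8.36%), 576 up (4.16%) and 581 down (4.2%). Opposite changes, 2-fold in both subsets, were rare. They comprised 12 genes up in ACE+ and down in CD74+ cells (0.0867%) and 28 genes down in ACE+ and up in CD74+ cells (0.202%). Genes with 0 reads in a library are left out of these counts. With genes listed for either subset included, the counts were 41 and 35, so the larger side changed. Changes of 2-fold in the same direction were as rare, with 21 genes up in both (0.152%) and 8 down in both (0.0578%).

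The 2 named genes with the highest D both encode cartilage proteins and moved in opposite directions. Col10a1 (ENSMUSG00000039462, GRCm38 chromosome 10, 34389981 to 34397085, plus strand) encodes the collagen of hypertrophic cartilage, the layer that is replaced by bone. It had 64.6 CPM with periostin and 25.7 CPM with vehicle in ACE+ cells, and 6.01 and 169 CPM in CD74+ cells. It rose 2.52-fold in ACE+ cells (exact 95% counting interval 2.25 to 2.82) and fell 28.1-fold in CD74+ cells (22 to 36.3), with D of 5.90. The order of the subsets was exchanged, since the CD74+ level was the higher one with vehicle and the lower one with periostin. Prg4 (ENSMUSG00000006014, chromosome 1, 150449412 to 150466165, minus strand) encodes lubricin, which lubricates joint surfaces. It had 31.4 and 5.83 CPM in ACE+ cells with periostin and vehicle, and 23.1 and 99.6 CPM in CD74+ cells. Its fold in ACE+ cells was 23.2 times its fold in CD74+ cells (17.9 to 30.2), and the 2 periostin libraries ended close together.

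The Col10a1 promoter is shown because this gene had the largest difference of all named genes, 250 bases before to 50 bases after the start in RefSeq, GRCm38.p6, chr10:34389731-34390030, plus strand. Capitals mark the motif searched and found, TATAAA.
Col10a1: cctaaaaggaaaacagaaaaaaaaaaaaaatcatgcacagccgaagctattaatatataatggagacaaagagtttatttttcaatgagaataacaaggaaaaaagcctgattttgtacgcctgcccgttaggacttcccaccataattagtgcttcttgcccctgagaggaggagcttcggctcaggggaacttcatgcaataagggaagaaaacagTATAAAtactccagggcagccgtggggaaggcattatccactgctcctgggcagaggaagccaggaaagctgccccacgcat
The match begins 32 bases before the start. TATAAA, searched on both strands, occurs in 13.6% of the 32851 promoters of this length in the table. TGTGGT (RUNX family, 16.8% of promoters), TGANTCA (AP-1, 7.81%) and the palindromic STAT motif of 10 bases (6.95%) were searched on both strands in the same window, and their letters are not in it.

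The other named genes that rose in ACE+ and fell in CD74+ cells had lower levels. Slco2a1, a prostaglandin transporter, had 11.7 and 4.14 CPM in ACE+ cells with periostin and vehicle and 0.538 and 2.99 CPM in CD74+ cells. Timeless, which acts at replication forks, had 12.6 and 4.33 CPM in ACE+ cells and 2.42 and 6.82 CPM in CD74+ cells. Both were less than 2-fold apart between the subsets with vehicle and stood further apart with periostin. Zfp707, a zinc finger gene, had 8.10 and 3.14 CPM in ACE+ cells and 1.08 and 7.17 CPM in CD74+ cells. Hbb-bh1, an embryonic beta-like globin, had 12.9 and 4.45 CPM in ACE+ cells and 1.44 and 7.06 CPM in CD74+ cells. A panel of 6 erythroid markers did not share that pattern. It summed to 1587 and 1335 CPM in ACE+ cells with periostin and vehicle, and to 416 and 234 CPM in CD74+ cells.

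Of the named genes with the reverse pattern, the one whose smaller of its 2 log2 changes (1 CPM added) was largest in size was Itih3 (ENSMUSG00000006522, chromosome 14, 30908572 to 30923760, minus strand), a heavy chain of the inter-alpha-trypsin inhibitors, which stabilise hyaluronan in the matrix. It had 0.883 and 5.52 CPM in ACE+ cells with periostin and vehicle, and 30.3 and 6.16 CPM in CD74+ cells. The subsets were alike with vehicle and 16.6-fold apart with periostin, each with 1 CPM added. Itih3 fell 6.25-fold in ACE+ cells (3.73 to 11.0) and rose 4.92-fold in CD74+ cells (3.94 to 6.20). Its promoter, chr14:30923538-30923837 on the minus strand, is shown as the counterpart to Col10a1 from the same RefSeq table.
Itih3: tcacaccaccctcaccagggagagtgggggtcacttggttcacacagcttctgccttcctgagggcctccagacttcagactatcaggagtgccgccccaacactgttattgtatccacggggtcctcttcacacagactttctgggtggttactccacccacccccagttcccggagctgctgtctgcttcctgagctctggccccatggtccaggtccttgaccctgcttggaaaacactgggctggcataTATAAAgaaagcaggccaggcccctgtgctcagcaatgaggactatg
The capitals mark TATAAA, beginning at base 4 of the transcript as annotated in RefSeq. The RefSeq start lies inside the gene coordinates given above, not at their edge, and the position is counted from RefSeq. The RUNX, AP-1 and STAT letters are not in this window.

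Gpr153, an orphan G protein-coupled receptor, had 6.38 and 22.5 CPM in ACE+ cells with periostin and vehicle, and 46.7 and 12 CPM in CD74+ cells. CD74+ cells had the higher level with periostin and ACE+ cells the higher level with vehicle. Dkk1, a secreted Wnt antagonist that restrains bone formation, had 0.294 and 2.01 CPM in ACE+ cells and 7.36 and 0.239 CPM in CD74+ cells, with D of -3.97 on 6 and 32 reads in ACE+ cells and 82 and 4 reads in CD74+ cells. Hecw2, a ubiquitin ligase, had 0.491 and 2.51 CPM in ACE+ cells and 7.54 and 0.957 CPM in CD74+ cells. Both were low genes that fell to under 1 CPM in ACE+ cells and exceeded 7 CPM in CD74+ cells with periostin. Crtam, an adhesion receptor of cytotoxic T cells and NK cells, had 4.02 and 14.7 CPM in ACE+ cells and 5.02 and 1.20 CPM in CD74+ cells. Slc13a5, a citrate transporter, had 2.55 and 6.90 CPM in ACE+ cells and 1.79 and 0.120 CPM in CD74+ cells. Its CD74+ vehicle level was below that of 3 reads in this library, 0.179 CPM. For these last 2 genes the opposite changes brought the subsets together.

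**Figure D2:**
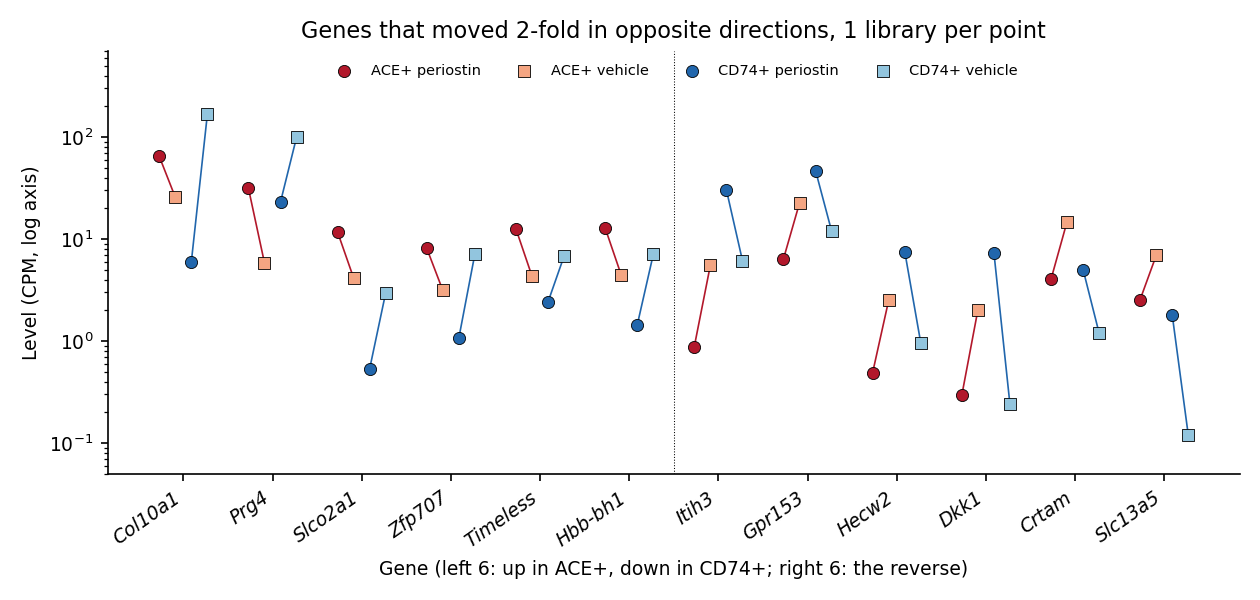
Levels in CPM on a log axis of 12 genes with opposite 2-fold changes, the 6 in each direction with the largest smaller change, with 1 point per library, with lines joining the 2 treatments of a subset. Col10a1 spans 6.01 to 169 CPM in CD74+ cells, and Itih3 lies at 0.883 CPM in ACE+ and 30.3 CPM in CD74+ cells with periostin.

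The lowest D of all named genes belonged to Retnla (ENSMUSG00000061100, chromosome 16, 48842551 to 48844461, plus strand), a secreted marker of alternatively activated mouse macrophages that is induced through STAT6. Retnla had 0.343 and 0.188 CPM in ACE+ cells with periostin and vehicle, from 7 and 3 reads, and 36.6 and 0.359 CPM in CD74+ cells, from 408 and 6 reads. Only the CD74+ periostin library was high. It rose 102-fold in CD74+ cells (46.5 to 280), and D was -4.61. Its promoter, chr16:48842359-48842658 on the plus strand, holds 3 of the motifs searched, in capitals.
Retnla: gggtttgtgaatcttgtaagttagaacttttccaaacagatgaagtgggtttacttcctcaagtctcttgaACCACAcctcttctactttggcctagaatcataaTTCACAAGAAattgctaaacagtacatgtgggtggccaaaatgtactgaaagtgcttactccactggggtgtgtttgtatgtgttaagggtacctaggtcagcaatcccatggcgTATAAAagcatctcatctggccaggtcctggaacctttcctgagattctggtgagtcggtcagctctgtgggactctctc
TATAAA begins 30 bases before the RefSeq start, the STAT motif 145 bases before and TGTGGT, on the minus strand, 179 bases before. The RefSeq start lies inside the gene coordinates given above, not at their edge. None of these matches overlaps another, and a match is a description of letters, not of binding.

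Retnla did not move with its list. Of 17 compared genes of alternative activation, 1 had D of at least 1 (Fn1) and 1 at most -1 (Retnla), beside 6.48% and 7.09% over all genes. The median D was 0.26 against -0.01 over all genes. Fn1, fibronectin, had 661 and 353 CPM in ACE+ cells with periostin and vehicle and 745 and 1323 CPM in CD74+ cells. Mrc1, the mannose receptor, had 5.59 and 7.21 CPM in ACE+ cells and 10.3 and 10.8 CPM in CD74+ cells. Chil3, a chitinase-like lectin, had 843 and 876 CPM in ACE+ cells and 974 and 908 CPM in CD74+ cells.

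Other genes of low D rose in CD74+ cells, while their change in ACE+ cells stayed under 2-fold with 1 CPM added. Marco, a scavenger receptor for bacteria and particles, had 1.57 and 2.95 CPM in ACE+ cells with periostin and vehicle and 5.47 and 0.0598 CPM in CD74+ cells. The CD74+ vehicle value was 1 read, so its fold of 91.5 had an interval of 15.8 to 3673. Hist1h4h, a replication-dependent histone H4 gene, had 2.35 and 2.63 CPM in ACE+ cells and 14.7 and 1.08 CPM in CD74+ cells. Raet1d, a ligand of the NKG2D receptor, had 0.442 and 1.82 CPM in ACE+ cells and 11.1 and 2.15 CPM in CD74+ cells. It just missed a 2-fold fall in ACE+ cells, with a log2 change of -0.97 with 1 CPM added, although its levels without the added CPM differed by more than 2-fold. In the annotation, other genes overlap 25.2% of its exons. Dyx1c1, a cilium assembly gene, had 1.52 and 1.63 CPM in ACE+ cells and 7.18 and 0.239 CPM in CD74+ cells, but other genes overlap 96.6% of its exons, so its reads are uncertain.

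Of the remaining genes with high D, most fell in CD74+ cells. Ctse, an endosomal aspartic protease, had 21.2 and 17.4 CPM in ACE+ cells with periostin and vehicle and 0.359 and 12.6 CPM in CD74+ cells, a 35-fold fall in CD74+ cells (13.5 to 130). Cd4, a T-cell coreceptor that some mouse macrophages also carry, had 10.8 and 5.46 CPM in ACE+ cells and 0.987 and 8.85 CPM in CD74+ cells. Reps2, an adaptor in receptor endocytosis, had 6.08 and 8.53 CPM in ACE+ cells and 1.26 and 20.7 CPM in CD74+ cells. In each of these the CD74+ periostin library was the lowest of the 4. Cyb5d2, a haem-binding protein, had 9.57 and 4.52 CPM in ACE+ cells and 1.17 and 7.95 CPM in CD74+ cells. Palb2, a partner in homologous recombination, had 4.42 and 4.89 CPM in ACE+ cells and 0.0897 and 7.59 CPM in CD74+ cells, where the low value was 1 read. Mfap5, a microfibril protein, differed in that it moved in both, with 11.5 and 1.94 CPM in ACE+ cells and 2.15 and 5.44 CPM in CD74+ cells. The 5 T and NK cell markers found, of 6 in the panel, summed to 6.97 and 1.76 CPM in ACE+ cells and 5.92 and 2.21 CPM in CD74+ cells, with Cd3d, Cd3g and Nkg7 at 0 in CD74+ cells with periostin and Cd3e at 0 with vehicle. Their part in the Cd4 and Crtam values was not tested.

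Cartilage matrix genes were the list with the largest difference in response. Of 19 compared members, 18 had a log2 change above 0 in ACE+ cells, and the median change was 1.14 in ACE+ and -0.14 in CD74+ cells, beside 0.00 and 0.01 over all genes. D was at least 1 for 11 of the 19 (Col10a1, Prg4, Col11a1, Col9a3, Acan, Col2a1, Col11a2, Hapln1, Cilp, Fmod and Comp) and at most -1 for Snorc, and the median D was 1.19. Over all genes the shares past these limits were 6.48% and 7.09%. Col2a1, the main fibrillar collagen of cartilage, had 520 and 134 CPM in ACE+ cells with periostin and vehicle, and 676 and 730 CPM in CD74+ cells. Acan, the aggregating proteoglycan of cartilage, had 41.4 and 15.9 CPM in ACE+ cells and 65.0 and 116 CPM in CD74+ cells. Col11a1, which nucleates cartilage fibrils, had 77.0 and 19.4 CPM in ACE+ cells and 86.8 and 111 CPM in CD74+ cells. In all 3 the ACE+ vehicle library was the lowest, and periostin brought the ACE+ level toward the CD74+ level.

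The cartilage list was therefore one in which the subsets converged. The median absolute gap between subsets was 0.64 with periostin and 1.58 with vehicle on the log2 scale, and the gap was narrower with periostin for 14 members and wider for 5. Its members Cnmd, Col9a1, Chad and Matn3 had D between -0.07 and 0.17, so the subset difference was not shared by the whole list. A further 4 members, Matn4, Ucma, Matn1 and Cilp2, were not compared because they had 0 reads in CD74+ cells with periostin. A panel of 10 chondrocyte markers, most of which are also in the cartilage list, summed to 795 and 222 CPM in ACE+ cells with periostin and vehicle and to 946 and 1308 CPM in CD74+ cells. All 10 were higher with periostin in ACE+ cells and 3 of 10 in CD74+ cells. The part of chondrocytes in the sorted cells in this result was not tested, and in bulk RNA fewer cells of a type cannot be told apart from less RNA per cell.

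Collagens outside cartilage shared part of this pattern. Among 13 bone and fibrous collagens, 6 had D of at least 1 and 1 at most -1 (6.48% and 7.09% over all genes), with a median D of 0.85. The chains of beaded-filament collagen were among them. Col6a3 had 113 and 58.6 CPM in ACE+ cells with periostin and vehicle and 93.7 and 185 CPM in CD74+ cells, and Col6a2 and Col6a1 had D of 1.54 and 1.26. The bone collagens did not follow. Col1a1 had 283 and 367 CPM in ACE+ cells and 118 and 125 CPM in CD74+ cells, and Col1a2 had 313 and 442 CPM in ACE+ cells and 90.6 and 93.8 CPM in CD74+ cells. Col14a1, which sits on fibril surfaces, was the exception with the opposite sign, at 0.245 and 1.19 CPM in ACE+ cells and 5.47 and 0.837 CPM in CD74+ cells. The median absolute gap was 0.68 with periostin and 1.44 with vehicle, though 7 gaps narrowed and 6 widened.

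Basement membrane genes differed in response without converging. Of 16 compared, 4 had D of at least 1 and none at most -1 (6.48% and 7.09% over all genes), and the median change was 0.19 in ACE+ cells and -0.42 in CD74+ cells. The laminin chain Lamb1 had 34.3 and 22.2 CPM in ACE+ cells with periostin and vehicle and 9.78 and 21 CPM in CD74+ cells. Lama4 and Lamb3, other laminin chains, had D of 1.55 and 1.35, and Agrn, a heparan sulphate proteoglycan, had 1.11. The median absolute gap was 0.88 with periostin and 0.32 with vehicle, so these genes separated the subsets. Among 19 elastic fibre and latent TGF-beta binding genes, 3 had D of at least 1, namely Mfap5, Loxl2 and Ltbp4. Loxl2, a collagen cross-linking oxidase, rose in both subsets, with 15.5 and 1.63 CPM in ACE+ cells and 24.0 and 11.2 CPM in CD74+ cells.

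Bone-forming genes had no common direction. Of 17 osteoblast and periosteal progenitor genes, 8 had D above 0 and 9 below. D was at least 1 for 1 (Pdgfrb, a growth factor receptor of mesenchymal progenitors, 1.30) and at most -1 for 4 (Bglap2, Ibsp, Sp7 and Tnfsf11), beside 6.48% and 7.09% over all genes, and the median D was -0.04. Bglap2, an osteocalcin gene, had 22.5 and 35.7 CPM in ACE+ cells with periostin and vehicle and 8.97 and 3.47 CPM in CD74+ cells. Ibsp, bone sialoprotein, had 13.2 and 17.9 CPM in ACE+ cells and 7.71 and 2.57 CPM in CD74+ cells. In both genes ACE+ cells had the higher level and the subsets lay closer together with periostin. A panel of 6 osteoblast markers summed to 424 and 515 CPM in ACE+ cells and to 185 and 188 CPM in CD74+ cells, and its part in these values was not tested.

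Secreted signals of bone passed 2-fold in both directions. Among 23 BMP, TGF-beta, activin and IGF factors and binding proteins, 4 had D of at least 1 (Inhba, Igfbp5, Fstl1 and Gdf3) and 3 at most -1 (Igfbp4, Gdf9 and Fst), beside 6.48% and 7.09% over all genes, with a median of -0.14. Inhba, the activin A subunit, had 7.46 and 5.58 CPM in ACE+ cells with periostin and vehicle and 1.17 and 7.12 CPM in CD74+ cells. Fst, follistatin, which binds and blocks activin, had 6.48 and 7.34 CPM in ACE+ cells and 7.98 and 2.69 CPM in CD74+ cells. In CD74+ cells the ligand thus fell and its inhibitor rose, and neither moved 2-fold in ACE+ cells. Of the 21 Wnt ligands and antagonists listed, 7 could be compared. Wnt10b, a ligand that favours bone formation, had 5.40 and 4.20 CPM in ACE+ cells and 0.628 and 8.07 CPM in CD74+ cells (D 2.78), opposite to Dkk1 (D -3.97). Other secreted Wnt antagonists, Wif1, Sfrp5 and Sfrp4, were not compared because they had 0 reads in CD74+ cells with periostin. With vehicle they had 109, 90 and 15 reads in CD74+ cells, so they did not follow Dkk1 there.

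Toll-like receptors, which sense microbial products, and their adaptors passed 2-fold in 1 direction only. Of 19 compared, 6 had D of at least 1 and none at most -1 (6.48% and 7.09% over all genes), with 14 above 0 and 5 below, and the median change was 0.07 in ACE+ cells and -0.31 in CD74+ cells. Tirap, the bridging adaptor to MyD88, had 29.4 and 32.6 CPM in ACE+ cells with periostin and vehicle and 8.97 and 31.9 CPM in CD74+ cells. Tlr9, the receptor for unmethylated DNA, had 20.7 and 17.8 CPM in ACE+ cells and 9.69 and 25.7 CPM in CD74+ cells. In both the CD74+ periostin library was the lowest of the 4 and the other 3 lay closer together. Tlr1, Tlr6, Ticam2 and Tlr8 had D of 1.39, 1.32, 1.28 and 1.01. The co-receptor Cd14 had the lowest D of the list, -0.71, at 77.3 and 82.0 CPM in ACE+ cells and 332 and 215 CPM in CD74+ cells. The median absolute gap of the list was 0.74 with periostin and 0.39 with vehicle.

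Antigen presentation gave smaller differences. Of 17 MHC class II presentation genes 1 had D of at least 1 and none at most -1 (6.48% and 7.09% over all genes). It was Ciita, the master regulator of class II transcription, with 12.3 and 10.0 CPM in ACE+ cells with periostin and vehicle and 2.78 and 7.77 CPM in CD74+ cells. The class II chain genes did not follow it. H2-Aa had 168 and 155 CPM in ACE+ cells and 247 and 195 CPM in CD74+ cells, and H2-Ab1 had 114 and 101 CPM in ACE+ cells and 186 and 106 CPM in CD74+ cells. None of 21 class I genes reached a D of 1 in either direction, with a median of -0.19. Among 15 costimulatory and checkpoint ligands 2 had D of at least 1 and none at most -1, beside the same shares over all genes. Cd80, a ligand of CD28 on T cells, had 8.34 and 9.53 CPM in ACE+ cells and 1.44 and 16.6 CPM in CD74+ cells, an 11.5-fold fall in CD74+ cells (6.98 to 20.5). Its partner Cd86 had 8.34 and 6.90 CPM in ACE+ cells and 16.4 and 9.69 CPM in CD74+ cells, with D of -0.46.

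Macrophage identity genes included members past 2-fold in both directions. Of 28 compared, 3 had D of at least 1 and 4 at most -1 (6.48% and 7.09% over all genes), and the median change was 0.15 in both subsets. Mertk, a receptor for apoptotic cells, had 14.7 and 12.2 CPM in ACE+ cells with periostin and vehicle and 3.77 and 14.5 CPM in CD74+ cells. Aif1, a macrophage actin-binding protein, had 7.26 and 2.76 CPM in ACE+ cells and 3.23 and 8.07 CPM in CD74+ cells, opposite 2-fold changes. Against these, Timd4, a phosphatidylserine receptor of resident macrophages, had 1.18 and 0.815 CPM in ACE+ cells and 6.46 and 0.598 CPM in CD74+ cells. C1qa, a chain of complement C1q, had 15.9 and 14.4 CPM in ACE+ cells and 36.9 and 14.6 CPM in CD74+ cells. The receptors of apoptotic cells thus included one that fell and one that rose in CD74+ cells. Of 16 complement genes 2 had D of at least 1 and 1 at most -1, and of 17 scavenger receptors 1 (Colec12, 1.88) and 1 (Marco, -3.23), near the shares over all genes.

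Inflammatory genes showed no common direction, apart from a small shift of NF-kB genes. Of 19 cytokines and mediators, 3 had D of at least 1 (Csf3, Lif and Il12a) and 2 at most -1 (Saa3 and Il12b). Over all genes these shares were 6.48% and 7.09%. Lif, a cytokine of the IL-6 family, rose in ACE+ cells, with 14.7 and 6.15 CPM in ACE+ cells with periostin and vehicle and 2.24 and 3.23 CPM in CD74+ cells. Saa3, an acute-phase protein, fell in ACE+ cells, with 3.34 and 12.9 CPM in ACE+ cells and 26.0 and 22.7 CPM in CD74+ cells. Among 30 immediate-early genes none had D of at least 1 and 2 at most -1, a share near the 7.09% over all genes. Nr4a1, an orphan nuclear receptor induced by many stimuli, had 20.7 and 16.6 CPM in ACE+ cells and 41.7 and 7.71 CPM in CD74+ cells, and Nr4a2 of the same family had D of -1.15. Fos, another early gene, had 41.5 and 36.0 CPM in ACE+ cells and 61.0 and 64.7 CPM in CD74+ cells. NF-kB subunits and feedback genes (1 of 22 at least 1, none at most -1) and interferon-stimulated genes (1 and 1 of 39) had shares below those over all genes. Of the 22 NF-kB genes, 17 had D above 0 and 5 below, with a median of 0.21.

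Integrin subunits, through which periostin is bound, had a median D of 0.37 over 19 genes, with 2 at least 1 (Itga10 and Itgax) and 2 at most -1 (Itga1 and Itgb8). Over all genes these shares were 6.48% and 7.09%. Itgav, the alpha chain of the classical periostin receptors, had 105 and 117 CPM in ACE+ cells with periostin and vehicle and 91.0 and 124 CPM in CD74+ cells. Its partner Itgb3 had 1012 and 1200 CPM in ACE+ cells and 541 and 590 CPM in CD74+ cells, and Itgb5 had 145 and 152 CPM in ACE+ cells and 116 and 129 CPM in CD74+ cells. No subunit of these receptors changed 2-fold. Itga1, a chain of a collagen receptor, moved oppositely, at 0.785 and 3.07 CPM in ACE+ cells and 2.51 and 0.658 CPM in CD74+ cells. Endothelial markers had a median D of 0.41 over 14 genes, 3 at least 1 and 1 at most -1, beside the same shares over all genes. Of these Cdh5, the endothelial cadherin, had 63.5 and 51.4 CPM in ACE+ cells and 14.1 and 40.2 CPM in CD74+ cells. Cldn5, an endothelial tight junction protein, moved oppositely, at 6.92 and 2.20 CPM in ACE+ cells and 0.538 and 2.33 CPM in CD74+ cells. A separate endothelial panel of 5 markers summed to 312 and 311 CPM in ACE+ cells and to 179 and 233 CPM in CD74+ cells.

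Most ribosomal protein, respiratory chain and proteasome genes responded less in ACE+ than in CD74+ cells, mostly by less than 2-fold, while translation factors did not. The 51 translation initiation and elongation factors had a median change of 0.01 in ACE+ cells and 0.02 in CD74+ cells, and 27 had D above 0 and 24 below. Their median length was 3383 bases, near the 3526 over all genes, against 784 to 2300 for the other lists here. The part of length in this contrast was not tested. Of 89 cytosolic ribosomal protein genes, 83 had D below 0, with a median change of 0.05 in ACE+ cells and 0.42 in CD74+ cells. Only 1 had D of at least 1 and 3 at most -1 (6.48% and 7.09% over all genes), so the list differed by a shared small shift. Rplp1, an acidic stalk protein of the ribosome, had 696 and 693 CPM in ACE+ cells with periostin and vehicle and 1137 and 595 CPM in CD74+ cells. Nuclear-encoded respiratory chain genes had a median D of -0.36, with 63 of 79 below 0, none at least 1 and 5 at most -1, the latter below the 7.09% over all genes. Uqcrq, a subunit of the ubiquinol-cytochrome c reductase, had 78.2 and 85.2 CPM in ACE+ cells and 183 and 97.0 CPM in CD74+ cells. The 13 mitochondrial genome genes had a median of -0.43, the 77 mitochondrial ribosomal proteins -0.29 and the 37 proteasome subunits -0.27. With trends on gene length and GC content removed the medians were -0.04 for the mitochondrial genome, -0.20 for cytosolic and -0.15 for mitochondrial ribosomal proteins, and -0.17 for both the nuclear-encoded respiratory chain and the proteasome.

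**Figure D3:**
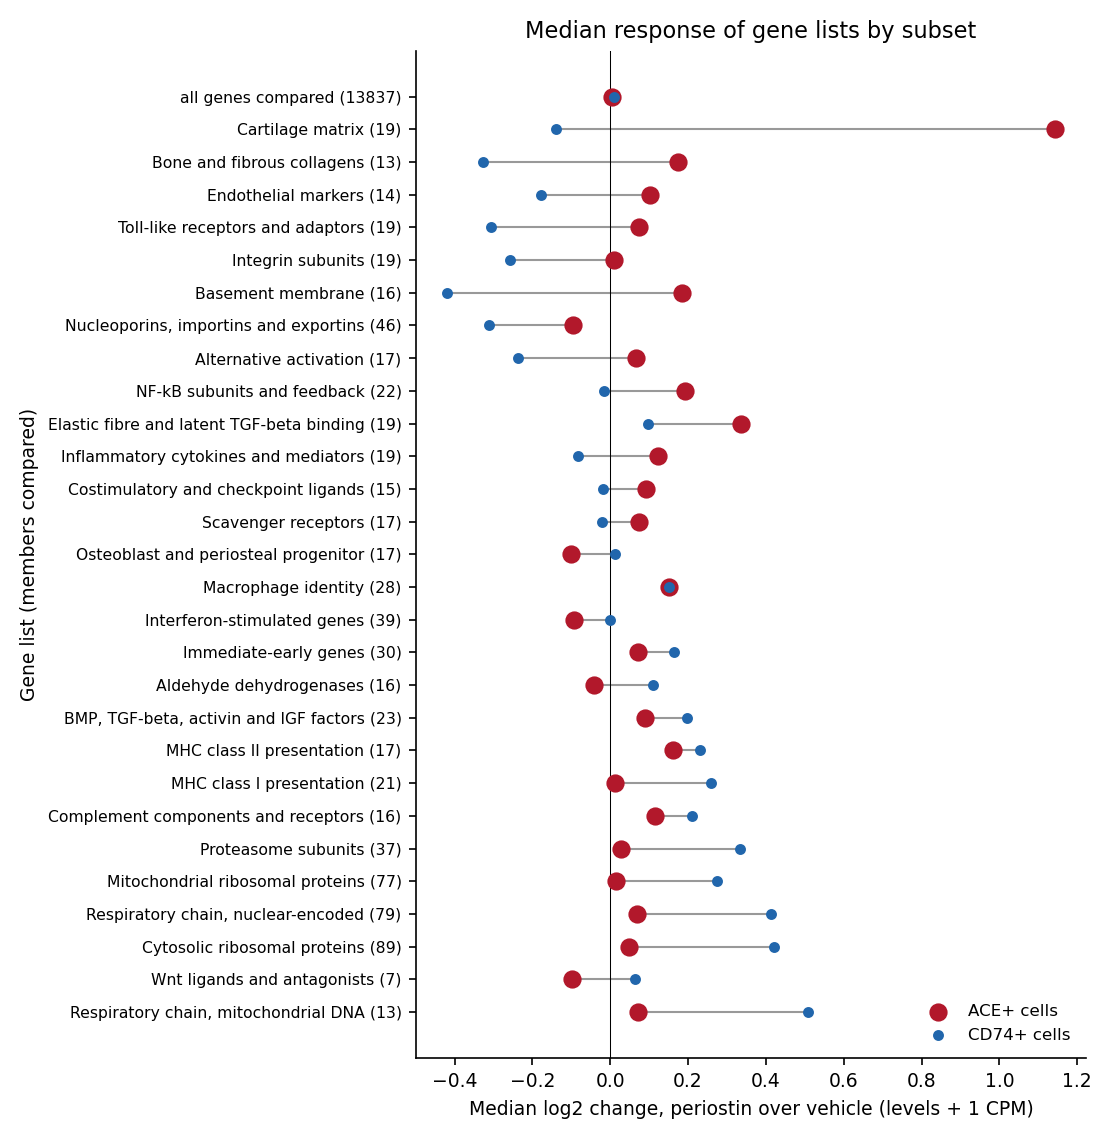
Median log2 change with periostin over vehicle in ACE+ cells (red) and CD74+ cells (blue) for the 28 gene lists described, sorted by their median D with all 13837 genes on top. Cartilage matrix stands furthest right in ACE+ cells at 1.14, and the mitochondrial genome furthest right in CD74+ cells at 0.51.

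The ribosomal protein, respiratory chain and proteasome lists had median lengths below that over all genes, and the CD74+ change followed gene length. Across all compared genes the CD74+ change had a Spearman's rho of -0.315 with the deposited gene length, the ACE+ change -0.102 and D 0.240. In the shortest 10% of genes the median change was 0.06 in ACE+ cells and 0.39 in CD74+ cells, and in the longest 10% it was -0.04 and -0.28. The part of this trend in the list values was not tested beyond the medians with the trend removed. Nucleoporins and transport receptors, with 36 of 46 genes at D above 0 and a median of 0.26, had no member past 2-fold in either direction.

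**Figure D4:**
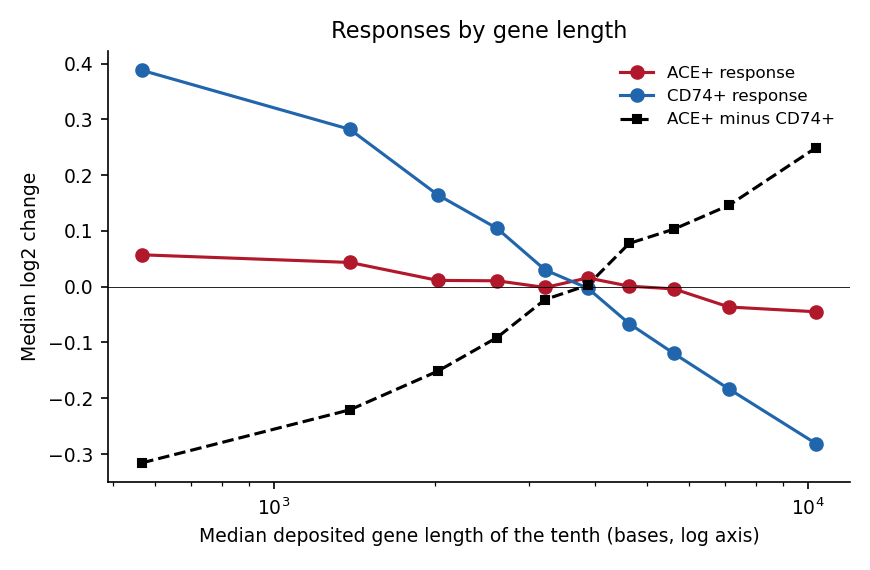
Median log2 change of the genes in each 10% of the genes by length, in ACE+ cells (red), CD74+ cells (blue) and as their difference (black dashes), against their median length on a log axis. The CD74+ line runs downhill between 0.39 and -0.28 while the ACE+ line stays between 0.06 and -0.04.

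Aldehyde dehydrogenases, which oxidise reactive aldehydes and make retinoic acid, were an enzyme family with low D. Of 16 compared, none had D of at least 1 and 5 at most -1, a share of members above the 7.09% over all genes, though the family median was only -0.14. Aldh1a1, a retinaldehyde dehydrogenase, changed oppositely, with 6.28 and 14.0 CPM in ACE+ cells with periostin and vehicle and 12.7 and 3.29 CPM in CD74+ cells. Aldh3a1 had 0.834 and 9.91 CPM in ACE+ cells, an 11.9-fold fall (7.19 to 20.9), and 1.61 and 3.53 CPM in CD74+ cells. Aldh1l1, a folate-dependent enzyme, had 13.3 and 12.3 CPM in ACE+ cells and 6.73 and 0.179 CPM in CD74+ cells, where vehicle had 3 reads. The lowest library was CD74+ vehicle for Aldh1a1 and Aldh1l1, and ACE+ periostin for Aldh3a1.

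The authors' deposited enrichment tables, which per their names cover genes higher with periostin in each subset, shared few terms. The authors' deposited table for ACE+ cells lists 637 terms and that for CD74+ cells 548, with 106 in both, 16.6% of the ACE+ list and 19.3% of the CD74+ list. With a Benjamini adjusted p below 0.05 the authors' deposited table has 71 terms for ACE+ cells and 43 for CD74+ cells, with 0 shared. Proteinaceous extracellular matrix led for ACE+ cells in the authors' deposited table, with 75 genes, 3.35-fold enrichment and an adjusted p of 8.27e-18, against 51 genes, 1.42-fold and 0.332 for CD74+ cells. For CD74+ cells the authors' deposited table has mitochondrion with 309 genes, 1.58-fold and 7.02e-15, and the ribosome pathway with 48 genes, 3.0-fold and 7.15e-10.

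Over all genes periostin left the subsets further apart. The median absolute gap between ACE+ and CD74+ levels was 0.46 with periostin and 0.34 with vehicle on the log2 scale, and the SD of the gap was 0.80 with periostin and 0.66 with vehicle. With periostin 2374 genes (17.2%) were at least 2-fold apart, 1424 higher (10.3%) and 950 lower (6.87%) in ACE+ cells. With vehicle 1523 genes (11%) were, 1035 higher (7.48%) and 488 lower (3.53%) in ACE+ cells. Pearson's r between the subsets' log2 levels was 0.933 with periostin and 0.956 with vehicle across genes, and Spearman's rho was 0.938 and 0.958. The gap was wider with periostin for 8171 genes (59.1%) and narrower for 5666 (40.9%). It widened by at least 1 on the log2 scale for 720 genes and narrowed by as much for 246.

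The CD74+ change was usually the larger one, both where the subsets separated and where they came together. Over all compared genes the median absolute log2 change was also larger in CD74+ cells, 0.36 against 0.18. The share of all genes with the larger change in CD74+ cells was not counted. The counts below therefore describe no trait of the separated genes. Of 1606 genes that were 2-fold apart only with periostin, the CD74+ change was the larger in size for 1377. Of 755 genes 2-fold apart only with vehicle, it was the larger for 525. A further 739 genes were apart in the same direction under both treatments, and 29 exchanged their order. Among abundant genes the separation was smaller. At 100 CPM or more, 8.54% of 2788 genes were 2-fold apart with periostin and 8.21% with vehicle, against 29.0% and 17.7% of 3358 genes between 5 and 20 CPM. The shallowest library is one of the 2 periostin libraries, and the part of its depth in the separation at low levels was not tested.

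**Figure D5:**
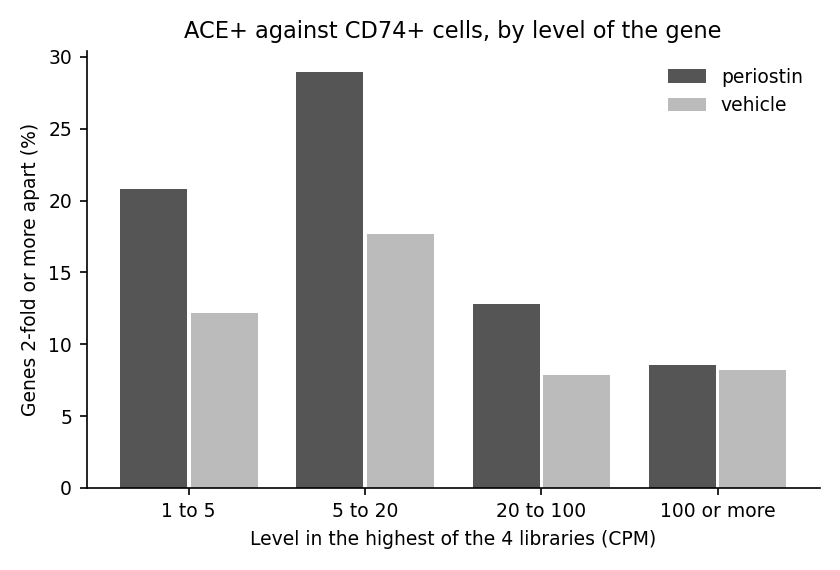
Share of compared genes at least 2-fold apart between ACE+ and CD74+ cells, in %, with periostin (dark bars) and vehicle (light bars), by the level of the gene in its highest library in CPM. The bars differ most between 5 and 20 CPM, 29.0% against 17.7%, and least at 100 CPM or more, 8.54% against 8.21%.

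The genes whose gap narrowed most were Prg4, Aldh1l1, Crtam, Slc13a5 and Hsh2d. With 1 CPM added, Prg4 was 1.34-fold apart with periostin and 14.7-fold apart with vehicle, and Aldh1l1 was 1.85-fold and 11.3-fold apart. Hsh2d, a lymphocyte adaptor, had 4.07 and 7.4 CPM in ACE+ cells with periostin and vehicle and 3.50 and 0.299 CPM in CD74+ cells. In 4 of these 5 genes, all but Prg4, the CD74+ level was 1.20 CPM or less with vehicle and rose toward the ACE+ level. The genes whose gap widened most were Retnla, Itih3, Ctse, Raet1d and Adarb1. Retnla was 28.0-fold apart with periostin and 1.14-fold with vehicle, and Ctse 16.4-fold and 1.36-fold. Adarb1, an RNA-editing adenosine deaminase, had 21 and 14.9 CPM in ACE+ cells and 0.718 and 7.77 CPM in CD74+ cells. In 3 of them (Retnla, Itih3 and Raet1d) CD74+ cells were the higher with periostin, and in Ctse and Adarb1 ACE+ cells were.

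Over the 56 gene lists with at least 5 compared members, the median gap was wider with periostin for 36 and narrower for 20. The median change was larger in size in CD74+ cells for 41 lists and in ACE+ cells for 15. Cartilage matrix therefore went against the general trend in both respects, with its larger change in ACE+ cells and its gap narrowed. A few genes changed alike in both subsets. Prg2, eosinophil major basic protein, had 17.1 and 2.38 CPM in ACE+ cells with periostin and vehicle and 12.9 and 1.79 CPM in CD74+ cells, with D of 0.10. An eosinophil, basophil and mast panel that includes Prg2 summed to 24.2 and 6.15 CPM in ACE+ cells and to 16.5 and 5.56 CPM in CD74+ cells. Of its 3 compared markers, 2 were higher with periostin in each subset. The part of such cells in the Prg2 values was not tested. Il1a, an alarmin cytokine, fell in both, with 10.3 and 22.2 CPM in ACE+ cells and 1.61 and 4.54 CPM in CD74+ cells, with D of 0.04.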

How the data were processed

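RNA was measured in 4 libraries, 1 per group, taken from the sample labels. Per the submitters' processing notes reads were aligned with HISAT2 to GRCm38. No source used here gives the counting tool, strand setting or annotation, so antisense overlaps cannot be told apart. The authors deposited, per subset, a signal per gene and library. Dividing each column by its smallest step gave whole numbers for 100% of values (tolerance 0.001), so the deposited signal is a read count over a library-wide size factor. The deposited mean equals the mean over all 4 libraries, so levels were set across both tables. A gene is listed only where both libraries of its table have reads. For a gene that a table omits, reads were derived from that mean. The authors also deposited log2 fold changes, which were not used for calls, and enrichment terms with a p-value and a fold (ratio), whose gene selection no source used here states.

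CPM was signal per 1000000 of the average column total, 15573211, with 1 read worth 0.0491 to 0.0897 CPM. A count of 0 allows 3 reads, 0.147 to 0.269 CPM. Genes needed 1 CPM in the highest library, 1 CPM was added before log2, and 2-fold was the call. Without replicates no test of D exists, because the interaction leaves 0 residual degrees of freedom. Counting intervals of folds (binomial) and of the ratio of folds (conditional odds ratio) are exact 95% intervals. Gene folds are ratios of levels without the added CPM, whereas D has it. Calculations used Python 3.11.15, scipy 1.17.1, R 4.3.3 and edgeR 4.0.16, and were tested on simulated data. Annotation came from GENCODE M21 (14294 of the 14398 genes) and promoters from RefSeq, GRCm38.p6.

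Members and the 57 lists were chosen with earlier results of these data known, and 28 lists are described, with translation factors beside them, chosen after their values were seen. Named genes are protein-coding, not predicted, with 5 CPM in the highest library. They are the 10 highest and 10 lowest by D, 6 per opposite direction, 5 with the most narrowed and 5 with the most widened gap, up to 4 per list by absolute D with its defining members, and the sort markers. Other members past 2-fold, and Prg2 and Il1a, were named after their values were seen. Alternatives were other pseudocounts, filters, TMM scaling, removal of length and GC trends, a 4-fold call and genes of either table.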

Additional observations from a re-analysis of the deposited data

Results flagged for a closer look

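For 17 named genes the single libraries moved in opposite directions in the subsets, each at least 2-fold, and these differences were not tested because each group has 1 library. D was above 0, with a rise in ACE+ and a fall in CD74+ cells, for Col10a1 (5.90), Prg4 (4.31), Zfp707 (3.11), Hbb-bh1 (3.07), Slco2a1 (2.68), Timeless (2.54), Mfap5 (3.11), Cldn5 (2.42) and Aif1 (2.24). It was below 0, with a fall in ACE+ and a rise in CD74+ cells, for Dkk1 (-3.97), Itih3 (-3.92), Gpr153 (-3.55), Hecw2 (-3.36), Crtam (-3.10), Slc13a5 (-2.47), Aldh1a1 (-2.72) and Itga1 (-2.27).

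Genes left out of the CD74+ table are not among the 13837 genes compared above, yet some were abundant in ACE+ cells. They enter the counts that include genes listed for either subset. Dmp1, a matrix protein of osteocytes, reached 184 CPM in ACE+ cells (114 with periostin and 184 with vehicle) and had 0 reads in both CD74+ libraries, where 3 reads would be 0.269 CPM with periostin and 0.179 CPM with vehicle. Bach2, a B-cell transcription factor, reached 74.2 CPM in ACE+ cells and had 0 reads in CD74+ cells with periostin and 76 with vehicle. Rag1, of the antigen receptor recombinase, reached 68.0 CPM in ACE+ cells and had 23 reads in CD74+ cells with periostin and 0 with vehicle. Bcl7a, a chromatin remodelling subunit, reached 46.5 CPM in ACE+ cells and had 0 reads in CD74+ cells with periostin and 50 with vehicle. B-cell markers summed to 660 and 732 CPM in ACE+ cells with periostin and vehicle, and to 29.5 and 43.0 CPM in CD74+ cells, and their part in these values was not tested.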

How the results depend on the processing

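All 7 alternatives other than the 4-fold call kept the wider median gap with periostin than with vehicle. Counts of genes past a threshold moved more. With 5 CPM added, D of at least 1 was met by 291 genes and D of at most -1 by 205, opposite changes by 2 and 2, and the subsets were 2-fold apart for 1028 genes with periostin and 671 with vehicle. With 0.1 CPM added there were 48 genes up in ACE+ and down in CD74+ cells, 145 the other way, and 2324 genes apart with vehicle. A minimum of 5 CPM left 537 genes at D of at most -1 and 16 down in ACE+ and up in CD74+ cells. A 4-fold call left 87 and 124 genes by D, 1 and 0 with opposite changes, and 338 and 192 genes apart with periostin and vehicle. Including genes of either table, chosen after seeing the data, gave 1595 genes at D of at least 1 and 1258 at D of at most -1. It gave 41 genes up in ACE+ and down in CD74+ cells and 35 the other way. In both pairs of counts the larger side changed. With these genes 3636 were apart with periostin. Median D of lists turned sign with length and GC trends removed for MHC class II presentation (0.0132) and macrophage identity (0.0763), and with genes of either table for complement (0.23) and Wnt genes (0.29). All 26 genes named for D, opposite change or gap kept D on the same side of 1 or -1 under 7 settings, which says nothing of their opposite changes. They were picked as extremes in the same 4 libraries, which favours this outcome, so it is no independent support for them. The cause of the shifts was not tested. No paired analysis of D was possible because each group has 1 library, so a replicate block leaves D untested, and no replicate could be left out. An edgeR quasi-likelihood fit of an effect common to both subsets, with the subset as a block, 1 residual degree of freedom and added after seeing the data, called 20 of 13837 genes at an adjusted p of 0.05 and 933 unadjusted. That fit took the 2 subsets as replicates of the periostin effect. Its only residual was the difference in response between them, so it is no test of D. Genes at 0 reads only in CD74+ cells with periostin numbered 1822, of which 148 reached 5 CPM elsewhere. For the other libraries the genes reaching 5 CPM elsewhere numbered 4 (ACE+ periostin), 5 (ACE+ vehicle) and 4 (CD74+ vehicle). The cause of this imbalance was not tested.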
